A study of Drosophila melanogaster with 53 samples.

Results

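Atg8a is 1 gene of the 11289 genes listed in 3 *Drosophila melanogaster* muscle RNA tables, and it was followed by its symbol and its identifier FBgn0052672 through every deposited table. Its protein is a small ubiquitin-like protein, the fly counterpart of yeast Atg8 and mammalian LC3 and GABARAP. During autophagy it is processed by Atg4 proteases, activated by the E1-like enzyme Atg7, passed to the E2-like enzyme Atg3 and joined to a membrane lipid, with the Atg12-Atg5-Atg16 complex as helper. On the growing autophagosome it recruits cargo receptors such as ref(2)P, and in adult muscle autophagy is known as a route by which damaged proteins and organelles are cleared.

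Polyadenylated RNA was sequenced from muscle of flies kept at 25 °C and 60% humidity, with 3 libraries in each of 13 groups. WT was line 5905, a w1118 stock. The ageing set was WT males of 3, 15, 30 and 45 d on conventional food. Both mutant sets were females of 3 d on conventional food. The first set held WT, Atg8a mutants (atg8ac320/c320), daw-3'UTR mutants (daw-3'UTRc82/c82) and daw-3'UTR foxo double mutants (daw-3'UTRc82/c82; foxoc431/c431). In the other set were WT, mutants of miR-252 (mir-252c328/c328), foxo mutants (foxoc431/c431), miR-252 foxo double mutants homozygous for both of these alleles, and the same double mutants with 1 mutant copy of daw (dawc458/+). For axenic (antibiotic-reared) foxo and WT females of 3 d, 3 libraries each, only the authors' comparison table was used. The same holds for Ago1 precipitates and inputs, 2 libraries each, from whole flies of both sexes at 3 and 30 d that carried pBID-UAS-HA-Ago1 and GS-tubulin-GAL4. Each mutant is represented by 1 allele, and the bases that each allele removes were not analysed here. No label states that the 3 libraries of a group are separate collections of flies, so p-values measure the spread between libraries, which may be technical.

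The 39 muscle libraries held 2358162 to 4078819 reads on listed genes. Of 12 muscle markers 11 were listed in males and 12 in females. The male library of 3 d replicate 3 stood apart, with 34.4% of its reads on mitochondrial genes against 24.9% and 26.4% in the other 3 d libraries. The female libraries also held yolk protein and other female reproductive RNA, which made up 1.60% to 8.11% of nuclear reads. Bulk RNA cannot tell fewer cells of a type from less RNA per cell, and this holds for every muscle value given here.

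Atg8a lies on chromosome X, from 10764878 to 10768338 on the minus strand, in the dm6 assembly. The reference annotation gives 3 transcripts, RA, RB and RC, of 121, 96 and 107 codons. They differ in their first exon, which holds 90, 15 and 48 coding bases, and share the second exon (10765605 to 10765802) and the last exon (10764878 to 10765535). All 3 share a 3' UTR of 580 bases. The deposited values are per gene, so the transcripts could not be told apart. No annotated gene overlaps Atg8a. Tango5 begins 464 bases past the 3' end of Atg8a and is read in the same direction, while BTBD9 begins 198 bases away from the Atg8a start and is read in the other direction.

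Values are normalised reads, that is, reads per gene divided by a size factor of the library within its table. They are compared within a table only. Group values are the mean ± SD of 3 libraries, and differences come from limma on log2(normalised value + 1), given ± SE with Benjamini-Hochberg p-values adjusted over all tested genes of the table and a threshold of 0.05. Among 18 such comparisons Atg8a passed in 6, which were every age against 3 d, the Atg8a mutant, the foxo mutant and the miR-252 foxo double mutant, each of the mutants against its WT. All 6 were lower values.

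Atg8a is abundant in this muscle. Per kilobase of merged exon (1695 bases), which allows genes to be compared, its level was 2041 normalised reads in males of 3 d, rank 215 of 10460 genes. It was 1856 in WT of the first female set, rank 167 of 10094, and 1820 in WT of the other set, rank 233 of 10168. Per kilobase it stood above each of the other listed autophagy genes in these groups. The next were Rab7, a GTPase of late endosomes, and ref(2)P, the fly p62. Their levels per kilobase were 3.88 and 3.89 times lower in males of 3 d, and 4.17 and 4.38 times lower in WT of the first female set. In WT of the other set ref(2)P was 2.87 times and Rab7 3.18 times lower per kilobase. Atg8b, the paralog of Atg8a, was not analysed here in muscle.

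The Atg8a mutants check the label. WT libraries of that set held 3569, 3445 and 2421 normalised reads of Atg8a, from 1938 to 3217 reads. The mutants held 45.4, 43.0 and 60.4, from 55, 59 and 69 reads. Every mutant library was far below every WT library, and the mutant mean of 49.6 ± 9.44 was 1.58% of the WT mean of 3145 ± 630. The log2 difference of -5.95 ± 0.15 was the lowest of 8271 tested genes (adjusted p = 2.11e-12), of which 4.73% were called lower. On the per-kilobase scale Atg8a dropped to 29.3 in the mutants, rank 4394. Which exons the remaining reads cover was not analysed here.

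**Figure D1:**
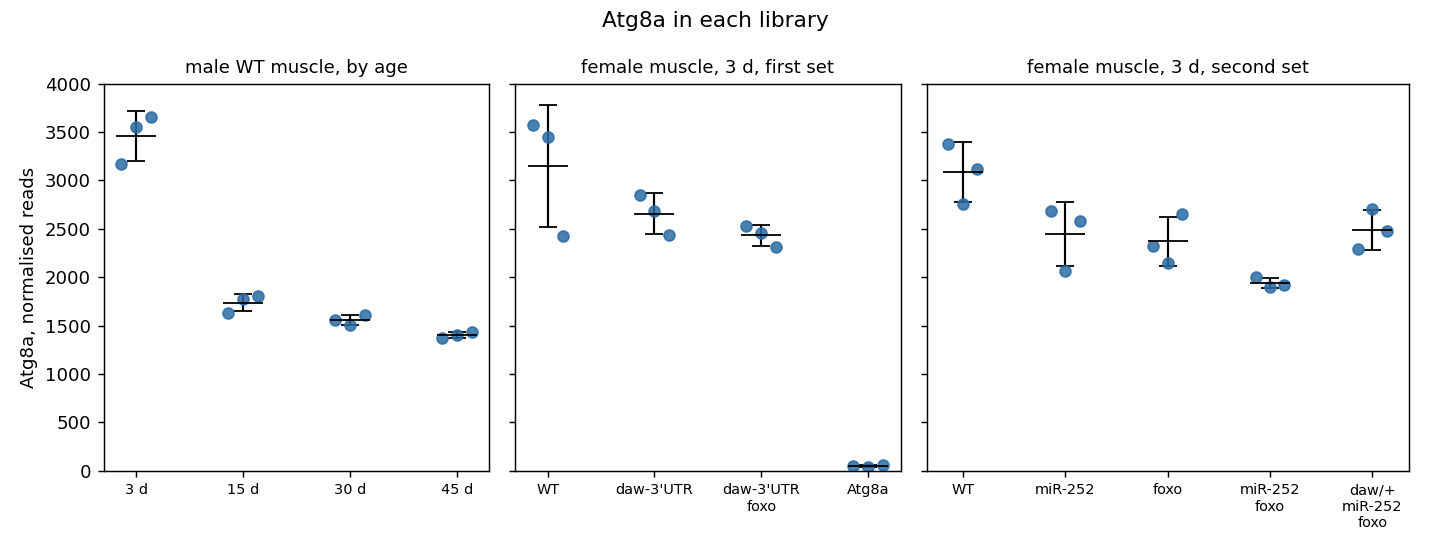
Atg8a in every muscle library. The y axis is normalised reads, points are libraries, the wide bar is the group mean and whiskers are ± 1 SD (3 libraries each); panels are separate tables and are not on a shared scale of depth. Males of 3 d lie above all later ages, the Atg8a mutants lie near 0, and the miR-252 foxo double mutants lie between 1898 and 1998, below the other 4 groups of their set.

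Atg8a fell with age in male muscle, and most of the drop had taken place by 15 d. At 3 d the libraries held 3171, 3556 and 3650 normalised reads, and at 15 d 1633, 1771 and 1801. At 30 d they held 1554, 1508 and 1611, and at 45 d 1370, 1404 and 1428. Groups of neighbouring ages did not overlap, but the steps after 15 d did not pass, as given below. How many of all genes separate in this way was not counted. The means by age were 3459 ± 254, 1735 ± 89.5, 1558 ± 51.8 and 1401 ± 29.5. The last was 40.5% of the 3 d mean.

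Against 3 d, Atg8a fell by 0.99 ± 0.12 on the log2 scale at 15 d (adjusted p = 0.000293), with 5.62% of 8393 genes called lower. The fall was 1.15 ± 0.12 at 30 d (adjusted p = 6.33e-05, 8.09% of genes called lower) and 1.30 ± 0.12 at 45 d (adjusted p = 1.81e-05, 10.5% called lower). These 3 comparisons share the 3 d libraries. At 45 d Atg8a ranked 404 of 8393 genes from the lowest log2 difference. Between later ages the steps did not pass: the log2 difference was -0.15 ± 0.12 both from 15 to 30 d (adjusted p = 1.00) and from 30 to 45 d (adjusted p = 1.00). From 15 to 45 d it was -0.31 (95% interval -0.57 to -0.04, adjusted p = 0.372). In a fit of the 15 and 3 d libraries alone the first fall had an adjusted p of 0.0521.

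The size of this fall depends on how libraries are scaled. As CPM over nuclear reads, Atg8a was 1005 ± 46.4 at 3 d, 704 ± 26.7 at 15 d, 637 ± 28.7 at 30 d and 592 ± 9.07 at 45 d, so that 58.9% remained at 45 d. With all libraries set to a common nuclear total, the log2 differences from 3 d were -0.51, -0.66 and -0.76 at 15, 30 and 45 d, and each passed. Under that scaling the median of all genes stood at 0.53, 0.55 and 0.60 at these ages, against 0.06, 0.07 and 0.07 before. It also raised the share of calls that were higher from 44.5% to 88.9% at 45 d.

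The composition of the libraries moved with age as well. Mitochondrial genes took 24.9% to 34.4% of reads at 3 d, 12.9% to 13.4% at 15 d, 8.67% to 8.81% at 30 d and 5.51% to 7.91% at 45 d. The summed muscle markers (Mhc, Act88F, TpnC4 and others) made up 3.06% to 6.13% of nuclear reads at 3 d and 1.38% to 1.51% at 45 d, and 8 of 11 fell at 45 d with a median log2 difference of -2.25. The fat body markers made up 0.22% to 0.61% at 3 d and 1.08% to 1.24% at 45 d, with 2 of 3 tested higher. Lower at 45 d were also 2 of 4 tested gut markers, 3 of 3 eye markers and 2 of 5 hemocyte markers. The eye markers made up at most 0.0250% of nuclear reads at 3 d. None of 5 tested neuron markers passed. The part of the mitochondrial share and of these markers in the Atg8a fall was not tested. Without the 3 d library that stood apart, the Atg8a log2 difference at 45 d was -1.26 ± 0.07 (adjusted p = 7.58e-10), and at 15 d it was -0.95 ± 0.07 (adjusted p = 4.69e-08).

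Of 31 other autophagy genes 28 were tested in males, and at 45 d 3 fell and the others did not pass, while 18.9% of all genes passed. Their median log2 difference was -0.13, against 0.07 over all genes. Atg101, a subunit of the Atg1 kinase complex that starts autophagy, went from 119.8 ± 16.8 to 79.9 ± 2.33 normalised reads (log2 -0.57 ± 0.16, adjusted p = 0.0261). Atg6, the fly Beclin and a subunit of the Vps34 lipid kinase complex, went from 99.5 ± 19.4 to 65.2 ± 4.35 (log2 -0.59 ± 0.16, adjusted p = 0.0255). Syx17, the SNARE with which autophagosomes fuse with lysosomes, went from 151 ± 37.8 to 94.3 ± 12.4 (log2 -0.65 ± 0.19, adjusted p = 0.0333). Syx17 was also the 1 other list member called at 15 d (-0.73, 7.97% of genes called) and at 30 d (-0.63, 13.5% called). Each of these calls depended on the setting. Syx17 kept its call in 7 of 14 alternatives at 15 d and in 6 of 14 at 30 d, and lost it when any 15 d or any 30 d library was left out. With a common nuclear total its log2 difference was -0.25 at 15 d and -0.14 at 30 d. At 45 d Atg101 kept its call in 7 of 14 alternatives and lost it without 3 d replicate 2 or any 45 d library. Atg6 kept it in 8 of 14 and lost it without any 45 d library, and Syx17 kept it in 8 of 14 and lost it without 45 d replicate 1 or 3. The cargo receptor ref(2)P was at 1257 ± 250 at 3 d and 1762 ± 137 at 45 d, a log2 difference of 0.50 ± 0.17 that did not pass (adjusted p = 0.0536). It was 1.04 with a common nuclear total (adjusted p = 0.000848), and ref(2)P also passed with a common upper quartile (0.0174), in DESeq2 (0.0171), and without 3 d replicate 1 (0.62, adjusted p = 0.0301) or replicate 3 (0.33, 0.00589). These counts moved with single libraries, and so did the calls over all genes, which numbered 1586 with all libraries. Without 3 d replicate 3, 11 members were lower and 1 higher at 45 d, while 4090 genes were called. Without 45 d replicate 1 or replicate 3 none was lower (1007 and 1053 genes called), and 1 was lower without 45 d replicate 2 (1104 called). With a common nuclear total 7 members were higher and none lower, while 3512 of 8388 genes were higher and 437 lower. DESeq2 called 6 members lower and 1 higher, with 1850 genes called over all.

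**Figure D2:**
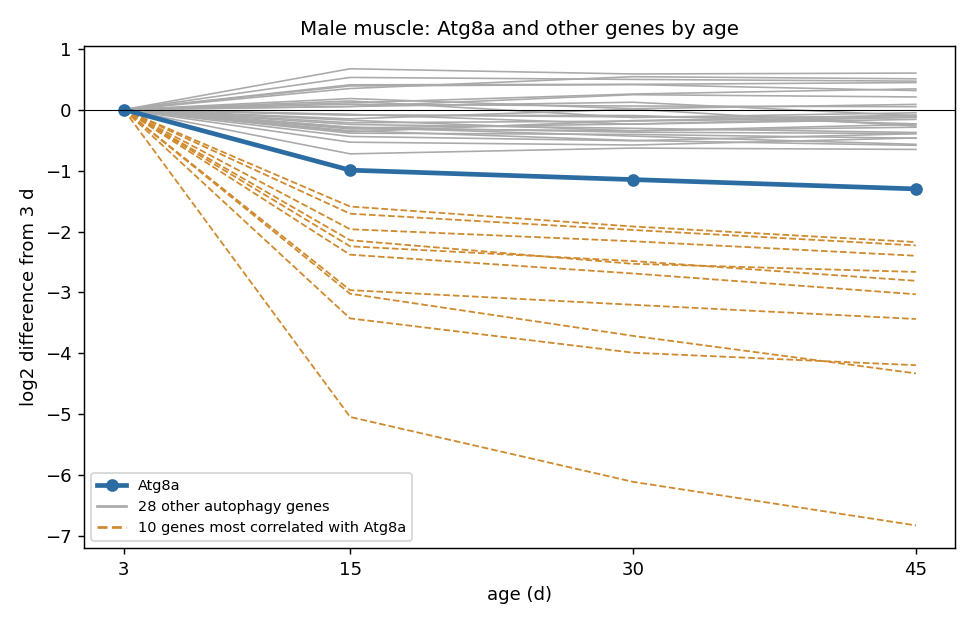
Log2 difference from 3 d (y axis) by age in days (x axis) in male muscle. Blue is Atg8a, grey lines are the 28 other tested autophagy genes and dashed orange lines are the 10 genes most correlated with Atg8a over the 12 male libraries. Atg8a ends at -1.30, below every grey line and above every orange one.

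Over the 12 male libraries, the 10 genes with the highest Pearson r with Atg8a on log2 values were Eno, Pglym78, CG9090, TpnC41C, PyK, Mdh2, CG11876, ATPsynF, Gapdh1 and Nplp3, with r from 0.992 to 0.996. Eno (enolase), Pglym78 (phosphoglycerate mutase), PyK (pyruvate kinase) and Gapdh1 (glyceraldehyde 3-phosphate dehydrogenase) act in glycolysis, and Mdh2 is the mitochondrial malate dehydrogenase. All 10 had larger falls than Atg8a: the log2 difference at 45 d was -2.23 for Eno, -2.40 for Mdh2, -3.02 for Pglym78 and -4.19 for Gapdh1. The male libraries share 1 large step between 3 and 15 d, and 340 of 5609 genes compared had r above 0.9, so a high r here is common.

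A stricter likeness used the smallest r of the 3 tables, with the Atg8a mutants left out, over 4887 genes. The 10 highest were ND-ACP (0.891), CG12099, Cyt-c1, CG11876, ATPsyngamma, ATPsyndelta, ATPsynbeta, Mdh2, l(1)G0334 and CG32486 (0.840). ND-ACP belongs to respiratory complex I, Cyt-c1 to complex III, and the ATPsyn genes encode subunits of the mitochondrial ATP synthase. The median over all genes of the smallest r was -0.44. Genes with r above 0.9 numbered 17 of 5236 in the first female set and 10 of 5584 in the other. Among autophagy genes Atg18a, which binds phosphoinositides on the forming membrane, had r of 0.88, 0.83 and 0.79 in the 3 tables, and was highest by the smallest r. Next came Atg9, a membrane protein of the vesicles that seed the autophagosome, with 0.72, 0.78 and 0.61, and Rab7 with 0.89, 0.89 and 0.60. For ref(2)P the values were -0.83, -0.10 and -0.06. These correlations describe libraries that share groups and depth, and carry no test.

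In the miR-252 and foxo set Atg8a was highest in WT and lowest in the miR-252 foxo double mutant. FoxO is a transcription factor of the insulin pathway, and miR-252 is a microRNA. WT libraries held 3380, 2759 and 3117 normalised reads. The miR-252 mutants held 2684, 2064 and 2579 and the foxo mutants 2318, 2145 and 2649, so that both stood below every WT library and overlapped each other. The miR-252 foxo double mutants held 1998, 1898 and 1921, below all other libraries of the table. With 1 mutant copy of daw added, the values were 2294, 2703 and 2473, above every library of the double mutant and below every WT library. How many of all genes separate in such ways was not counted. Of the differences between these groups that were tested, only foxo mutant and double mutant against WT passed.

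In foxo mutants Atg8a fell by 0.38 ± 0.11 on the log2 scale (2371 ± 256 against 3086 ± 312, adjusted p = 0.0348), with 6.28% of 8357 genes called lower. This call rests on few libraries: with WT column 1, WT column 3, foxo replicate 1 or foxo replicate 2 left out, the difference was -0.31, -0.37, -0.37 and -0.31 and the adjusted p was 0.151, 0.101, 0.108 and 0.155. In miR-252 mutants the mean was 2442 ± 332, and the log2 difference of -0.34 (95% interval -0.58 to -0.10) did not pass (adjusted p = 0.110). The foxo transcript itself was at 753 ± 65.0 in foxo mutants against 582 ± 43.4 in WT, so its level does not check the genotype (log2 0.37, adjusted p = 0.0455, and above 0.05 with any 1 of the 6 libraries left out).

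In the miR-252 foxo double mutants Atg8a fell by 0.67 ± 0.11 (1939 ± 52.6, 62.8% of WT, adjusted p = 0.000223), with 12.9% of genes called lower. The single mutants were at 79.1% (miR-252) and 76.8% (foxo) of WT. The interaction term, which measures how far the double mutant departs from the sum of the single changes on the log2 scale, was 0.06 ± 0.16 (95% interval -0.28 to 0.40, adjusted p = 0.938). Departures within that interval cannot be told from none with 3 libraries a group. Against the miR-252 mutant the double mutant differed by -0.32 ± 0.11 (adjusted p = 0.0543), and this passed in edgeR (adjusted p = 0.0474) and DESeq2 (0.0354) and without miR-252 replicate 2 (-0.44, adjusted p = 0.0109). Against the foxo mutant the difference was -0.28 ± 0.11 (adjusted p = 0.139), and -0.14 with a common nuclear total (0.437).

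One mutant copy of daw, which encodes the activin-like ligand Dawdle, went with a higher Atg8a value in the double mutant background. The mean was 2490 ± 205 against 1939 ± 52.6, a log2 difference of 0.36 (95% interval 0.12 to 0.60). It missed the threshold in limma (adjusted p = 0.0777) and passed in DESeq2 alone (0.0309) of 14 alternatives. With a common nuclear total it was 0.23 (adjusted p = 0.184), and in the fit of the compared groups alone the adjusted p was 0.154. Against WT these flies differed by -0.31 ± 0.11 (adjusted p = 0.0748).

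Markers of muscle changed little beside these Atg8a values, while those of other cell types moved. Muscle markers summed to 3.40% to 3.75% of reads in WT and to 3.27% to 3.49% in the double mutants, and 2 of 12 were higher and 1 lower. Hemocyte markers summed to 0.0803% to 0.0912% in WT and to 0.168% to 0.209% in the double mutants, with 5 of 5 higher. Yolk protein and other female reproductive markers summed to 3.62% to 4.37% in WT and to 6.30% to 6.81% in the double mutants, with 3 of 4 tested higher, and to 7.35% to 8.11% in foxo mutants. Gut markers summed to 0.337% to 0.414% in WT and to 0.210% to 0.239% in the double mutants, with 2 of 4 tested higher and 2 lower. Of 4 tested fat body markers 2 were higher, and of 6 neuron markers 1 was lower. In the double mutants 25.2% of all genes passed. The part of these markers in the Atg8a differences was not tested. With a common nuclear total the double mutant differed from WT by -0.52 (adjusted p = 0.000922), while the median gene stood at 0.16 against 0.01 before, and 70.9% of calls were higher against 49.0% before.

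Other autophagy genes moved both ways in the double mutants, where 25.2% of all genes passed. Of 29 tested 4 rose and 3 fell, with a median log2 difference of 0.01 as over all genes. The risers were Atg7, the E1-like enzyme that activates Atg8a (32.5 ± 10.4 to 53.0 ± 2.13 normalised reads, log2 0.74), Vamp7, a lysosomal SNARE (172 ± 14.8 to 277 ± 60.9, log2 0.67), Vps16A of the HOPS tethering complex (log2 0.47) and the Rab7 adaptor Plekhm1 (log2 0.71). Those that fell were Vps34, the lipid kinase (log2 -0.47), Atg18a (-0.38) and usnp, the SNAP29-like partner of Syx17 (117 ± 6.13 to 75.4 ± 9.10, log2 -0.63). The gene ref(2)P was at 1516 ± 190 in WT and 1528 ± 149 in the double mutants (adjusted p = 0.938). In foxo mutants, where 11.8% of genes passed, usnp (-0.64, adjusted p = 0.0158) was the 1 member called, and the call was lost without WT column 1 (0.0527) or 2 (0.0509) or foxo replicate 2 (0.0958) or 3 (0.0523). It was also the 1 called in the double mutants with a mutant daw copy (-0.63, 15.9% of genes called). With a common nuclear total 7 members rose and 1 fell in the double mutants, while 1719 of 8360 genes rose and 705 fell. The calls of Vamp7, Plekhm1 and usnp held in 13 of 13 alternatives. Atg7 kept its call in 8 of 13 and lost it without WT column 1 or any double mutant library, and Vps16A kept it in 9 of 13 and lost it without WT column 3 or double mutant replicate 2 or 3. Vps34 kept it in 10 of 13 and lost it without WT column 3 or double mutant replicate 3, and Atg18a kept it in 8 of 13 and lost it without WT column 1 or 3 or double mutant replicate 2 or 3. Left-out libraries moved the counts too: 1 member fell without WT column 3 or without double mutant replicate 3, and 2 rose without double mutant replicate 2 or replicate 3. Over all genes 1504 to 1669 passed in these fits, against 2107 with all libraries.

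**Figure D3:**
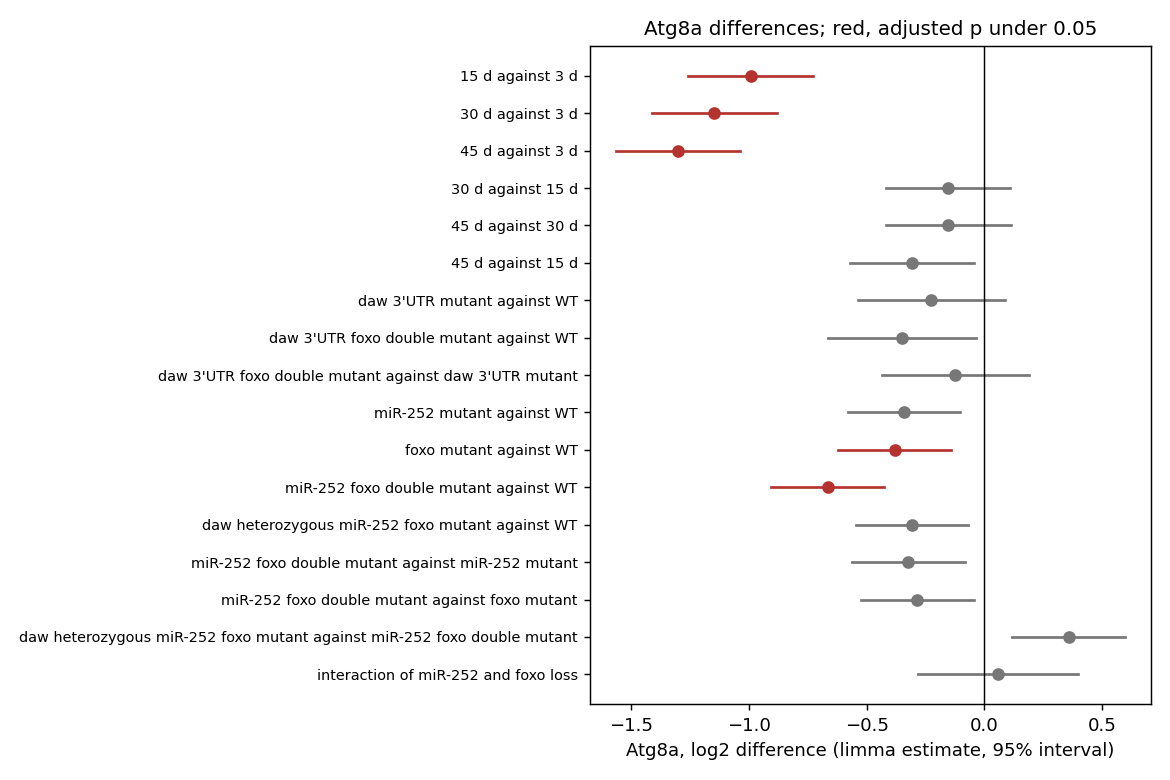
Atg8a log2 differences in 17 comparisons, the Atg8a mutant left out. Points are limma estimates, lines are 95% intervals, and red marks an adjusted p under 0.05 over all genes of the table. The falls from 3 d are the largest, at -0.99 to -1.30, and the miR-252 foxo double mutant follows at -0.67.

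The alleles of the daw 3' UTR were set against the same WT as the Atg8a mutants. The daw-3'UTR mutants held 2853, 2680 and 2433 normalised reads of Atg8a, and the daw-3'UTR foxo double mutants 2525, 2458 and 2316. Both overlapped WT, whose replicate 3 (2421) lay well below the other WT libraries (3445 and 3569). The log2 difference was -0.23 ± 0.15 in daw-3'UTR mutants (adjusted p = 0.549), from -0.12 without WT replicate 1 and -0.15 without WT replicate 2 to -0.40 without WT replicate 3 (0.104), and -0.14 with a common nuclear total. It was -0.35 ± 0.15 in the double mutants (95% interval -0.66 to -0.04, adjusted p = 0.0764). Without WT replicate 3 the double mutants differed by -0.53 ± 0.13 (adjusted p = 0.00506). In these double mutants, where 35.8% of all genes passed, hemocyte markers were higher in 5 of 5 and muscle markers in 8 of 12, with 3 muscle markers lower. Neuron markers were lower in 4 of 5 and gut markers in 1 of 4, and female reproductive markers were higher in 1 of 3. No fat body or eye marker passed. The part of all these markers in the Atg8a values was not tested. The double mutants differed from daw-3'UTR mutants by -0.12 (95% interval -0.44 to 0.19, adjusted p = 0.567).

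In the daw-3'UTR foxo double mutants 35.8% of genes passed, and of 28 tested autophagy genes 6 rose and 6 fell. Vamp7 rose by 0.64 ± 0.11, Plekhm1 by 0.48 ± 0.13, Atg3, the E2-like enzyme that hands Atg8a to lipid, by 0.45 ± 0.11, and ref(2)P by 0.40 ± 0.12. Syx17 fell by 0.49 ± 0.16 and usnp by 0.63 ± 0.14. The calls of Vamp7, Atg3 and usnp held in 14 of 14 alternatives, and Plekhm1 lost its call in DESeq2 (adjusted p = 0.0654). Syx17 lost it in DESeq2 (0.0501), in the compared groups alone (0.0673) and without WT replicate 1 or 2 or double mutant replicate 1 or 2. The gene ref(2)P lost it in the compared groups alone (0.0602) and without WT replicate 3 or double mutant replicate 1 or 2. DESeq2 called 3 members higher, the compared groups alone gave 3 higher and 1 lower, and edgeR and a common nuclear total each gave 3 lower. The lower count was 2 without WT replicate 1 or replicate 2, 1 without double mutant replicate 1 and 3 without its replicate 2. The higher count was 3 without double mutant replicate 1 or replicate 2. Over all genes 2314 to 3010 were called in these settings, against 2960 in the main fit. In daw-3'UTR mutants alone, where 3.12% of genes passed, Atg13 (-0.63, adjusted p = 0.0396) and usnp (-0.92, adjusted p = 0.00154) fell. The usnp call held in 14 of 14 alternatives and the Atg13 call in 6 of 14. The Atg13 call was lost without WT replicate 2 or 3 or any daw-3'UTR library (adjusted p from 0.0613 to 0.146), in the compared groups alone (0.0945), and with a common upper quartile (0.0711) or nuclear total (0.121).

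In the Atg8a mutants 9.89% of genes passed, and of 28 tested autophagy genes 1 did. This was Atg13, the partner of the Atg1 kinase, which fell from 253 ± 67.1 to 138 ± 6.61 normalised reads (log2 -0.84 ± 0.15, adjusted p = 0.00377). This call held in 14 of 14 alternatives, and the same WT libraries serve the daw-3'UTR comparison. The median log2 difference of the 28 was 0.22, against 0.00 over all genes, and 5 lay below 0. The receptor ref(2)P was at 1014 ± 149 in WT and 1181 ± 47.1 in the mutants (log2 0.23 ± 0.12, adjusted p = 0.249). Of the cell type markers, 3 of 5 for hemocytes were lower in these mutants and 1 of 5 tested for neurons was higher. Of 12 muscle markers 2 were higher and 2 lower. No tested fat body, gut, eye or female reproductive marker passed. The part of these markers in the changes of other genes was not tested.

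The largest change close to the locus was in Tango5, the next gene downstream, whose mammalian counterpart VMP1 is a membrane protein needed to form autophagosomes. WT libraries held 186, 183 and 152 normalised reads of Tango5 and Atg8a mutants 494, 495 and 453. The mutants were above all WT libraries, and the log2 difference was 1.47 ± 0.12 (adjusted p = 6.25e-06), with 5.16% of genes called higher. In the other 12 muscle groups, which carry the Atg8a gene, group means of Tango5 lay between 159 and 260. Its 17 other log2 differences ran from -0.19 to 0.22, with adjusted p-values from 0.323 to 1.00. Under 14 alternative settings the difference in Atg8a mutants ran from 1.37 to 1.52 and passed in each. These values are reads assigned to Tango5 per gene, and whether they come from Tango5's own transcript was not tested.

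Of 24 annotated genes and elements that start within 100 kb of the Atg8a start, 13 were tested and 3 passed in Atg8a mutants. Besides Tango5 these were ras, which encodes IMP dehydrogenase (372 ± 23.2 to 265 ± 19.2, log2 -0.49 ± 0.11, adjusted p = 0.0101), and CG15209 (160 ± 40.4 to 236 ± 29.6, log2 0.58 ± 0.16, adjusted p = 0.0297). The CG15209 call was lost in the fit of the compared groups alone (adjusted p = 0.0840) and without WT replicate 1 or 3 or mutant replicate 1 or 3 (0.0807 to 0.111). BTBD9, the divergent neighbour, was at 199 in WT and 185 in mutants (log2 -0.10 ± 0.11, adjusted p = 0.634).

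Over wider distances, chosen after the values were seen, the share of genes that passed in Atg8a mutants was 23.1% (3 of 13) within 100 kb and 22.9% (11 of 48) from 100 to 500 kb on the X. It was 10.99% (20 of 182) from 500 kb to 2 Mb, 7.85% (87 of 1108) farther along the X and 10.1% (696 of 6919) on other chromosomes. Also chosen after their values were seen, 3 genes other than Atg8a within 1 Mb passed and changed by more than 2 on the log2 scale. Such genes numbered 3 of 1108 on the X beyond 2 Mb and 42 of 6919 on other chromosomes. They numbered 0 of 13 within 100 kb, 2 of 48 from 100 to 500 kb and 1 of 182 from 500 kb to 2 Mb. The eye colour gene v, 156 kb away, which encodes tryptophan dioxygenase, held 115.4, 84.8 and 129.9 normalised reads in WT and 4.13, 0.73 and 1.75 in Atg8a mutants (log2 -5.24 ± 0.30, adjusted p = 9.88e-08). The gene antdh at 401 kb rose from a mean of 5.53 to 66.0 normalised reads (log2 3.46 ± 0.34). Its WT mean is near the floor, and its log2 difference ran from 2.47 to 3.71 over 14 alternatives. CG9360 at 996 kb rose from 67.0 to 432 (log2 2.66 ± 0.13). Linked differences between the lines and effects of Atg8a loss cannot be told apart with 1 allele.

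**Figure D4:**
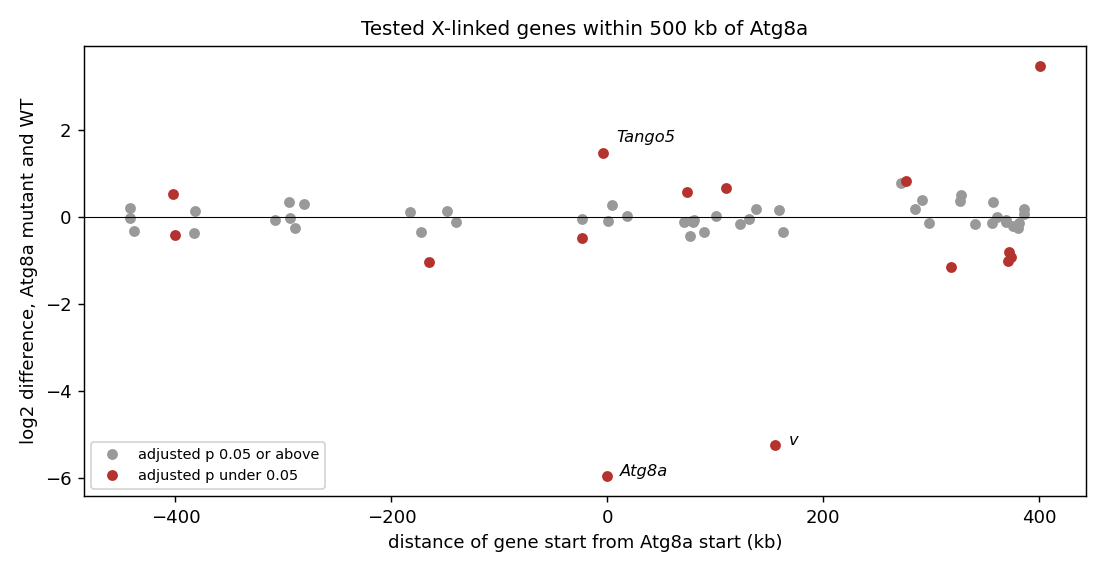
Log2 difference between Atg8a mutants and WT (y axis) for tested X-linked genes against the distance of their start from the Atg8a start in kb (x axis). Red points passed at an adjusted p under 0.05 in limma. Tango5 at 1.47 stands out beside the locus, and v at -5.24 lies 156 kb away.

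In axenic flies the authors' deposited table gives Atg8a a log2 difference of -0.15 ± 0.14 (SE) between foxo mutants and WT (adjusted p = 0.736), with 6.25% of 9371 genes under 0.05. For conventionally reared foxo mutants the authors' deposited table gives -0.37 ± 0.10 (adjusted p = 0.00396), with 5.82% of genes called lower. Whether the 2 differ was not tested.

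Ago1 is the Argonaute protein through which fly microRNAs bind their target mRNAs, and an mRNA held in such complexes is enriched in an Ago1 precipitate over its input. In the authors' deposited table for 3 d, Atg8a was 2.32-fold higher in the precipitate (log2 1.22 ± 0.14, SE, adjusted p = 2.07e-15), rank 1234 of 10880 genes by log2, with 17.8% of genes called higher. In the authors' deposited table for 30 d it was 3.39-fold higher (log2 1.76 ± 0.36, adjusted p = 2.92e-05), rank 943 of 11110, with 14.4% called higher. The difference between the ages was not tested. Whether a microRNA was bound to Atg8a mRNA, and which, is not part of these values. The series holds precipitates and inputs only, without a control precipitate.

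The paralog Atg8b went the other way in the authors' deposited tables, at log2 -1.13 ± 0.32 at 3 d (adjusted p = 0.00262) and -0.98 ± 0.51 at 30 d (adjusted p = 0.181). Of 30 other autophagy genes 7 were higher in the precipitate at 3 d and 7 at 30 d, while 17.8% and 14.4% of all genes were. These 7 were Atg4b, Atg101, Vps34, Atg18a, Atg18b, bchs and Rab7 at both ages. Atg4b, a protease that processes Atg8a, stood at 1.83 at 3 d and 1.81 at 30 d, and Atg18b at 1.75 and 2.45 in the authors' deposited tables. The authors' deposited values for ref(2)P were -0.13 (adjusted p = 0.568) and -0.23 (0.619). For daw they were 3.12 and 3.87, and for foxo 1.78 and 1.54.

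**Figure D5:**
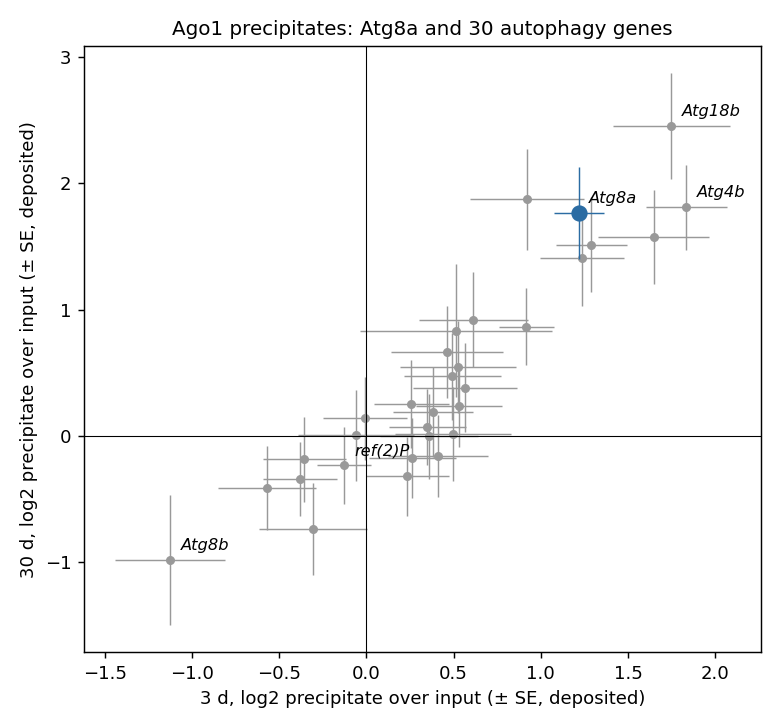
Log2 precipitate over input from the authors' deposited tables at 3 d (x axis) and 30 d (y axis), with deposited SE, for Atg8a (blue) and 30 other autophagy genes (grey). Atg8a lies at 1.22 and 1.76, among the 8 genes of the plot that were higher at both ages, and Atg8b lies lowest at -1.13 and -0.98. Over all genes 17.8% were higher at 3 d and 14.4% at 30 d.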

How the data were processed

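Polyadenylated RNA was sequenced, and STAR, HTSeq, DESeq and the dm6 build are named, without versions, in the submitters' processing notes. The signal in the 3 tables by library is a normalised count that the authors made by dividing reads by DESeq size factors. Dividing by the value of 1 read gave whole reads for 100% of values within 0.01, so the deposited values carry depth. The authors' deposited comparison tables hold log2 fold changes with standard errors, p-values and mean normalised signal; shrinkage is not stated. Their test statistic, a score that the authors deposited, was not used. Male identifiers were named through the table of the first female set (9869) or the reference (732), and 56 had no name. Mitochondrial genes were not analysed here in the female tables.

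limma 3.58.1 (R 4.3.3, trend) was fitted to log2 of the normalised value plus 1, keeping genes whose table mean was 10 or more, with all groups of a table and no replicate block. Alternatives were a pseudocount of 8, no filter, common upper quartile, common nuclear total, edgeR 4.0.16 and DESeq2 1.42.0 on whole reads, only the groups compared, a replicate block and leaving out each library. On simulated reads for 45 d against 3 d (8393 genes) 94% of 100 genes changed by 1 on the log2 scale and 100% of 100 changed by 2 were recovered, with 14 false calls. The simulation set the same spread for every gene, changed only genes with a mean of at least 50 and held no library that stood apart. Its recovery therefore checks the code and is not the power in these data. Genes named are Atg8a, list members that passed, Atg8b, ref(2)P, neighbours within 100 kb that passed, and the 10 most alike by each rule, with a mean of at least 50. Rab7, Atg9, BTBD9, v, antdh and CG9360 were named after their values were seen. The gene and the lists were chosen with earlier results of these data known. WT columns of the miR-252 and foxo table carry no link to numbered samples and are called columns 1 to 3. Reads of genes that share sequence, or of antisense partners, may be split, since the labels do not state whether strand was used.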

Additional observations from a re-analysis of the deposited data

How the results depend on the processing

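Of 253 recomputed Atg8a differences 236 kept their direction and their side of the threshold, and of 1150 recomputed values of named genes and list counts 935 did. For 15 d against 3 d the value was -0.99 in the fit of the compared groups alone (adjusted p = 0.0521, no longer past the threshold); for 45 d against 15 d it was -0.31 there (0.00723) and -0.31 in DESeq2 (0.0169), both past it. The daw-3'UTR foxo double mutant against WT passed with a common upper quartile (-0.38, adjusted p = 0.0473) and in DESeq2 (-0.37, 0.0435), and ran from -0.53 to -0.25 with single libraries left out. The miR-252 foxo double mutant against the miR-252 mutant passed in edgeR (-0.33) and DESeq2 (-0.33), and ran from -0.44 to -0.25 with libraries left out. The daw heterozygous flies against the double mutant passed in DESeq2 (0.36, adjusted p = 0.0309). With libraries left out, foxo against WT ran from -0.46 to -0.31 and the interaction from -0.060 to 0.14, so that its sign turned. The cause was not tested in any of these.

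With a common nuclear total Atg18a and Rab7 at 45 d against 3 d turned to 0.14 and 0.16, and passed neither there nor in the main fit. Both were called lower in DESeq2 (-0.40, adjusted p = 0.0153, and -0.37, 0.00191). The same held in limma without 3 d replicate 3 (-0.48, adjusted p = 0.000290, and -0.38, 0.00108). In the double mutant ref(2)P ran from -0.082 to 0.0998 with libraries left out and did not pass. Same-numbered libraries of different groups had a median correlation of deviations of -0.008, -0.008 and 0.017 in the 3 tables. Single pairs ran from -0.127 to 0.086 in males, -0.131 to 0.175 in the first female set and -0.089 to 0.281 in the other. WT of the other set could not enter. These few dependent values show no common pairing but cannot exclude one. With a replicate block the Atg8a difference at 45 d was -1.30 (adjusted p = 0.000139), in the Atg8a mutant -5.95 (9.04e-11) and for the double mutant against the miR-252 mutant -0.32 (0.0584), and it changed no Atg8a call; it left 1 other autophagy gene lower at 45 d. No paired analysis was possible for the comparisons with WT of the miR-252 and foxo set because its WT columns carry no sample number. With 3 libraries a group, differences of the size seen in the single mutants sit near the threshold.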
